A study of Mus musculus with 5 samples.

Results

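Keratins are the intermediate filament proteins of epithelial cells, and their genes were followed here in cells sorted from the embryonic mouse lung. Members were all genes whose symbol is Krt followed by a digit and which had a probe set annotated to that gene alone. These were 48 of the 18193 genes measured in this way, and each was represented by its probe set with the highest mean. The gene table of the mouse genome lists 53 protein-coding keratins, and Krt9, Krt39, Krt40, Krt87 and Krt90 are not analysed here. Of the 48 genes, 25 encode type I and 23 type II keratins, and they were divided from textbook knowledge into 5 simple, 4 basal, 14 suprabasal, 8 inner root sheath, 12 hair and 5 other keratins.

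A keratin filament is built from heterodimers of an acidic type I and a basic type II chain, so cells make at least one keratin of each type. Simple, single-layered epithelia use Krt8 and Krt18, often with Krt7 and Krt19. The basal cells of layered epithelia use Krt5 and Krt14, with Krt15 and Krt17, and the layers above switch to other pairs, such as Krt1 with Krt10 in skin and Krt4 with Krt13 in moist epithelia like the oesophagus. The inner root sheath of the hair follicle and the hair shaft have keratins of their own. In the lung, the simple keratins mark epithelium of airways and alveoli, and Krt5 and Krt14 mark airway basal cells. Except for Krt18, which lies beside Krt8 in the type II cluster, type I and type II genes lie in separate clusters on chromosomes 11 and 15.

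The samples were 5 biological replicates of a single group. Embryos came from timed matings of FOXJ1-GFP mice, a reporter line in which a FOXJ1 promoter drives GFP, with outbred ICR mice. At E17.5, GFP+ lungs were picked and broken up into cells by trypsin/EDTA treatment, and flow cytometry gave the GFP+ fraction, labelled as differentiating ciliated cells. Total RNA was amplified, labelled with biotin and hybridised to 1 Affymetrix array per replicate. Because no second condition is analysed here, each gene was tested only for its level against a background.

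Of 14 genes of ciliated cells, the labelled cell type, 13 were above background, among them Foxj1 at 12.82 ± 0.08, Dnah9 at 12.71 ± 0.11, Dnaic1 at 11.53 ± 0.06 and Dnaic2 at 9.44 ± 0.09 (log2 signal, SD, n = 5 arrays), while Spag6 read 3.67 ± 0.13. Markers of other lung cells were above background as well, with 10 of 10 alveolar type 1, 9 of 9 alveolar type 2, 9 of 11 club and goblet cell, 10 of 10 endothelial, 10 of 12 mesenchymal and 8 of 12 white blood cell genes, beside 65.7% of all genes. The share of white blood cell genes (66.7%) was near that of all genes. Values are those of the sorted population as a whole, in which fewer cells of a type and less RNA per cell cannot be told apart. Pearson's r between arrays, across probe sets that are not independent replicates, lay between 0.987 and 0.994. A probe set's brightness also depends on its sequence, so each gene was set against the background level and its own values on other arrays, and not against another gene.

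Promoters are shown for the simple keratins with an entry in the RefSeq promoter table (GRCm38.p6) and, for contrast, for keratins of the hair follicle. Each run holds the 100 bases before the annotated start and the first 10 from it, written 5′ to 3′ on the strand of the gene, with TATAAA, the core of a TATA box, in capitals. The 4 simple keratins, all above background on the arrays, were Krt8 (chr15:102004333-102004442, minus strand), Krt18 (chr15:102028116-102028225, plus strand), Krt7 (chr15:101412303-101412412, plus strand) and Krt20 (chr11:99438144-99438253, minus strand).
Krt8: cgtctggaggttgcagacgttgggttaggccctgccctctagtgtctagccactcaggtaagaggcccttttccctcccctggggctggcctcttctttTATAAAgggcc
Krt18: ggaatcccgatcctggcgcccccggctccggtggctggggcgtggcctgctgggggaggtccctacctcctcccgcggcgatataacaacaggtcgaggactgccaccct
Krt7: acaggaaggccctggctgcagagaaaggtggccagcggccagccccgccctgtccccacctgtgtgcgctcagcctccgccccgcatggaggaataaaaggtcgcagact
Krt20: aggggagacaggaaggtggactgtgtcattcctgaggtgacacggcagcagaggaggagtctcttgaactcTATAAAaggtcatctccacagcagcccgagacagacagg
The 4 follicle keratins, none above background, were the hair keratins Krt34 (chr11:100041545-100041654, minus strand) and Krt31, its neighbour along the cluster (chr11:100050542-100050651, minus strand), and the inner root sheath keratins with the highest and the lowest mean of their class, Krt25 (chr11:99322942-99323051, minus strand) and Krt26 (chr11:99337956-99338065, minus strand).
Krt34: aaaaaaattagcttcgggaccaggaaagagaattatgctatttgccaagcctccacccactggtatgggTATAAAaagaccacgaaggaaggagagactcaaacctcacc
Krt31: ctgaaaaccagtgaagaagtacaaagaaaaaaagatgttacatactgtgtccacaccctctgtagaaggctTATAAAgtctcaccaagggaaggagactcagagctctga
Krt25: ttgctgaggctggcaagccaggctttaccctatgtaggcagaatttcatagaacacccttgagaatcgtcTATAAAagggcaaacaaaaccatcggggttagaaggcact
Krt26: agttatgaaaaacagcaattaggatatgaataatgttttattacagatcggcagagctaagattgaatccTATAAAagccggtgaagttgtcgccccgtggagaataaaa
In the 4 follicle keratins shown the motif began 29 to 31 bases before the start, and in Krt20 it began 29 bases before it. Not every hair or inner root sheath promoter held the motif in this window, as the counts by class below show. In Krt8 it began 1 base before the annotated start, and in Krt18 and Krt7 these letters did not occur in the window.

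The table held promoters of 32 of the 48 keratins, 33 entries in all. TATAAA stood on the strand of the gene in the 110 bases of 15 of these 33 (45.5%), against 4% of all 32851 promoters. By class it stood in 2 of 4 simple, 0 of 2 basal, 3 of 10 suprabasal, 6 of 8 inner root sheath, 4 of 7 hair and 0 of 2 other entries. On either strand of the full 300 bases it stood in 54.5% of keratin promoters and 13.6% of all promoters. GGGCGG, the core of a GC box, which does not overlap TATAAA, showed the opposite difference, in 2 of 33 keratin promoters (6.06%) and 35.7% of all promoters on either strand of the 300 bases. One of those 2 was that of Krt7. These are matches of letters, counted without a test, and not evidence of binding.

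Most keratin genes were not above background in the FOXJ1-GFP+ cells, and those that were included every simple keratin and no keratin of hair or the inner root sheath. The background level was 6.95 on the log2 scale, the 95th percentile over 138 genes not thought to be used by lung cells, which are olfactory, vomeronasal and taste receptors and genes restricted to other tissues. Above it were 11 of 48 keratins (22.9%), beside 65.7% of all genes (limma, one-sided, adjusted p under 0.05). The study used a cut-off of 5 arbitrary units on average expression in its comparison with earlier progenitors. Applied here to another quantity, the mean of the E17.5 arrays alone, and taken to be log2, it was passed by 28 of 48 keratins (58.3%), beside 81.3% of all genes. The median of the gene means was 5.52 for keratins and 9.07 for all genes. By type, 6 of 25 type I and 5 of 23 type II keratins were above background.

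By class, 5 of 5 simple keratins were above background, with 1 of 4 basal, 3 of 14 suprabasal, 0 of 8 inner root sheath, 0 of 12 hair and 2 of 5 other keratins. The medians of the gene means were 14.15 for simple, 6.12 for basal, 5.57 for suprabasal, 4.61 for inner root sheath, 4.91 for hair and 6.71 for other keratins. These medians mix probe sets of different brightness and were not tested against each other. All 11 genes above background were above it on each of the 5 arrays. The count was 11 with any array left out, but 7 at the 99th percentile of the background genes (level 7.83) and 19 with the receptor genes alone as background (level 5.44).

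**Figure D1:**
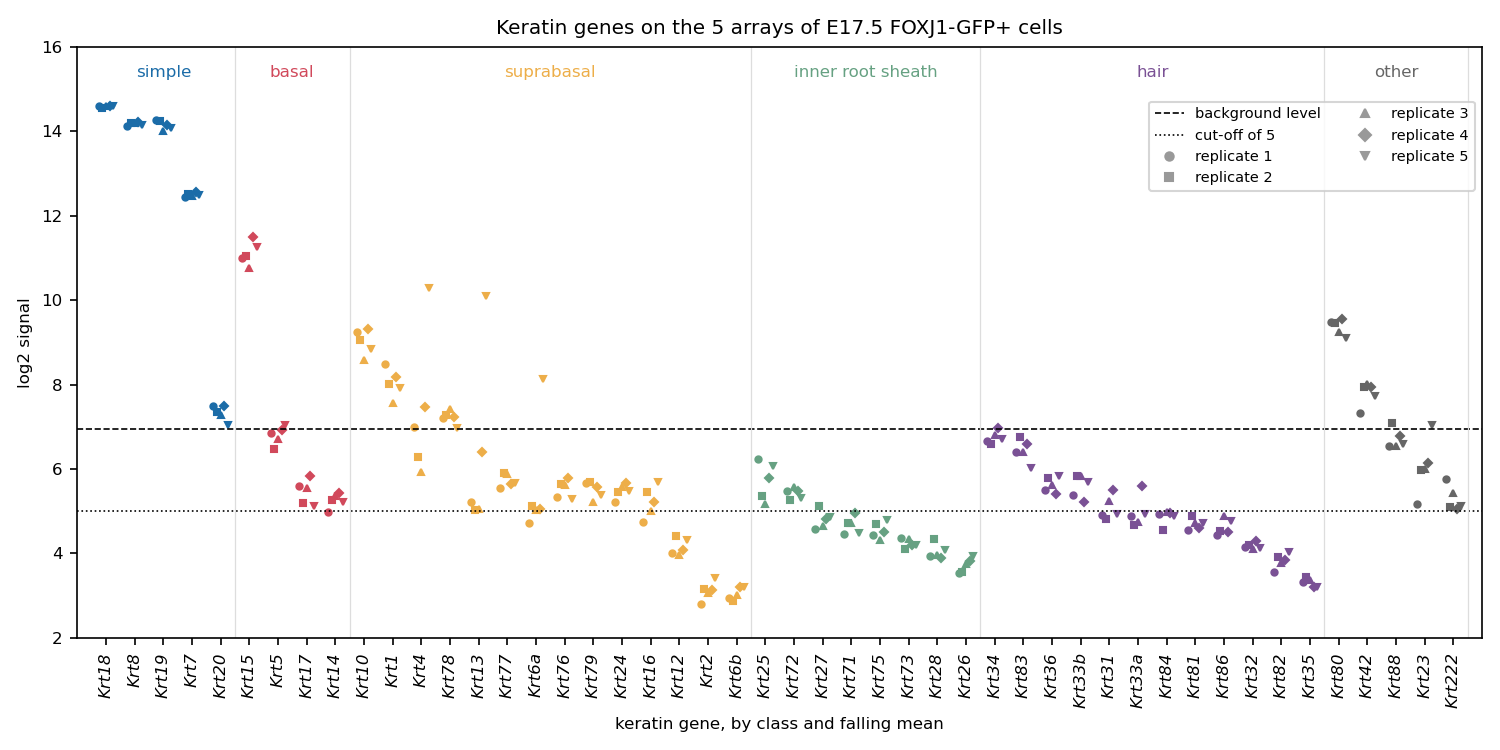
Log2 signal (vertical axis) of the 48 keratin genes, by class and falling mean, on each of the 5 arrays of FOXJ1-GFP+ cells, 1 symbol per replicate, with the background level of 6.95 (dashed) and the cut-off of 5 (dotted). All 5 simple keratins lay above the dashed line on every array, no hair or inner root sheath keratin did so, and Krt4, Krt6a and Krt13 had 1 array, replicate 5, far above the others.

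Of the simple keratins, Krt18, Krt8, Krt19 and Krt7 lay far above background on every array. Krt18, the type I chain of simple epithelia, read 14.61, 14.56, 14.61, 14.61 and 14.59 on replicates 1 to 5, which is 7.64 ± 0.06 above background (log2, SE, adjusted p = 3.8e-11, limma). Krt8, its type II partner, read 14.12, 14.21, 14.21, 14.22 and 14.16, and was 7.23 ± 0.06 above background (adjusted p = 3.8e-11, limma). Both were nearly flat over the arrays, and the 2 further probe sets of Krt8 gave 14.09 ± 0.07 and 14.04 ± 0.04 (SD, n = 5 arrays). Krt19, a small type I keratin without a tail domain, read 14.27, 14.25, 14.02, 14.16 and 14.07, or 7.20 ± 0.07 above background (adjusted p = 3.8e-11, limma). Krt7, a type II keratin of ducts and other simple epithelia, read 12.44, 12.52, 12.46, 12.57 and 12.50, or 5.55 ± 0.06 above background (adjusted p = 4.26e-11, limma). Simple keratins of both types were thus above background together on every array.

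Krt20, a type I keratin known from the intestine, the urothelium and Merkel cells, was close to the level. It read 7.48, 7.35, 7.28, 7.49 and 7.05, which is 0.38 ± 0.08 above background (log2, SE, adjusted p = 0.00229, limma). With only tissue-restricted genes as background the difference was 0.15 (adjusted p = 0.117, limma), and at the 99th percentile Krt20 was below the level by -0.50. Its call is therefore bound to the level chosen, whereas the other 4 simple keratins kept theirs at each level tried.

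Among the basal keratins, only Krt15 was above background. Krt15, a type I keratin of basal cells, read 10.99, 11.05, 10.76, 11.49 and 11.26, or 4.16 ± 0.11 above background (log2, SE, adjusted p = 2.91e-09, limma). Its lowest array was far above the level, and its SD of 0.28 lay at percentile 83.1 of the genes above background. Krt5, the type II keratin that defines basal cells, read 6.85, 6.46, 6.71, 6.91 and 7.03, with 1 of 5 arrays above the level and a mean of -0.16 relative to it (adjusted p = 1, limma). Krt14, the partner of Krt5, read 4.97, 5.27, 5.35, 5.43 and 5.22, and its other probe sets had means of 4.74 ± 0.21 and 4.69 ± 0.10 (SD, n = 5 arrays). Krt17, a type I keratin of basal cells and of skin appendages, read 5.59, 5.20, 5.54, 5.83 and 5.13, and its second probe set had a mean of 3.77 ± 0.18. A probe set that names both Krt14 and Krt17 read 5.36 ± 0.28. No array put Krt14 or Krt17 near the background level. Krt5 passed when the receptor genes alone set the level (1.35 above it, adjusted p = 1.19e-06, limma), and Krt14 and Krt17 did not.

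Other genes of airway basal cells, a list without keratins, were above background in 7 of 10 cases, a share (70%) near the 65.7% of all genes. Lists overlap: of those called, Pdpn and Cav1 are also in the alveolar type 1 list. Itga6 is also in the list of plakins and other keratin-binding proteins. Dapl1 read 9.47 ± 0.39 and Snai2 9.94 ± 0.30 (SD, n = 5 arrays), while Ngfr, a surface marker of basal cells, read 6.36 ± 0.27 and Aqp3 5.51 ± 0.25. Trp63, the transcription factor that defines basal cells, read 8.10, 7.30, 6.86, 6.94 and 6.67, with a mean 0.22 above background (adjusted p = 0.295, limma). With the receptor genes alone as background Trp63 (1.73 above the level, adjusted p = 3.57e-05, limma) and Ngfr (0.92 above it, adjusted p = 3.88e-05) passed, as Krt5 did. Of the genes that define basal cells, the calls of Trp63, Ngfr and Krt5 thus depended on the level, and Krt14 was below it at both. How much of the Krt15 signal came from cells of the basal type was not tested.

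The suprabasal keratins above background were Krt10, Krt1 and Krt78. Krt10, the type I keratin of the differentiating epidermis, read 9.25, 9.06, 8.57, 9.32 and 8.84, or 2.05 ± 0.12 above background (log2, SE, adjusted p = 4.7e-07, limma). Krt1, its type II partner, read 8.48, 8.01, 7.55, 8.17 and 7.91, or 1.07 ± 0.13 above background (adjusted p = 6.64e-05, limma). Both genes were lowest on replicate 3. Krt78, a type II keratin, read 7.20, 7.28, 7.41, 7.22 and 6.98, only 0.26 ± 0.08 above background (adjusted p = 0.0104, limma). At the 99th percentile of the background genes Krt1 was 0.19 above the level (adjusted p = 0.201, limma) and Krt78 -0.61 from it, so of the 3 only Krt10 was called there. Of the other 11, Krt2, a type II keratin of the upper epidermis, read 3.11 ± 0.22, and Krt6b, whose probe set had the lowest mean of the family, read 3.04 ± 0.15. Krt77, another type II keratin, read 5.73 ± 0.16 (SD, n = 5 arrays). It was above background only with the receptor genes alone as background (0.29 above that level, adjusted p = 0.00487, limma).

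Genes of epidermal differentiation were mostly not above background, with 5 of 19 called (26.3%, beside 65.7% of all genes) and a median of the gene means of 5.26. Lor, which encodes loricrin, read 5.26 ± 0.54, Ivl, involucrin, 6.47 ± 0.12, Flg, filaggrin, 2.96 ± 0.21 and Tgm3, an epidermal transglutaminase, 4.90 ± 0.18 (SD, n = 5 arrays). Among those called, Tgm1, another transglutaminase, read 7.99 ± 0.15, Dlx3, a homeobox gene of skin and placenta, 8.44 ± 0.31, Tchh, trichohyalin, 8.52 ± 0.23, and Sbsn, suprabasin, 11.24 ± 0.17. Sprr1a, a cornified envelope precursor, was the fifth, at 7.64 ± 0.78, or 0.68 above background (adjusted p = 0.0361, limma), and its call was lost without replicate 2 (adjusted p = 0.0577) or replicate 5 (adjusted p = 0.0728). With probe sets that may match other transcripts (marked by a suffix) left out, Sbsn was -0.29 from the level. With the probe sets of a gene averaged, Dlx3 was -0.39 from it. At the level set by all background genes, genes of the cornified envelope were thus found on both sides.

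Of the keratins in no other class, Krt80 and Krt42 were above background. Krt80, a type II keratin found in many epithelia, read 9.49, 9.45, 9.24, 9.56 and 9.11, or 2.41 ± 0.08 above background (log2, SE, adjusted p = 1.79e-08, limma). Krt42, a type I keratin, read 7.32, 7.94, 8.01, 7.93 and 7.73, or 0.83 ± 0.11 above background (adjusted p = 0.000122, limma). The probe sets of Krt42 disagreed. The one used has a suffix that marks probes which may also match other transcripts, and the other read 5.70 ± 0.21 (SD, n = 5 arrays), below the level. Krt88 read 6.71 ± 0.24, Krt23 6.06 ± 0.67 and Krt222 5.29 ± 0.30, and none of these passed at the level set by all background genes. Krt88 (1.27 above the level, adjusted p = 2.5e-06, limma) and Krt23 (0.62 above it, adjusted p = 0.0217, limma) passed with the receptor genes alone as background. Krt222 did not.

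Keratins of the hair shaft and of its inner root sheath gave no call by limma in 20 genes. All their means lay below the level, so none passed at an unadjusted p under 0.05 either, and none had all 5 arrays above it. Among hair keratins the means ran from 3.31 ± 0.10 for Krt35 to 6.75 ± 0.15 for Krt34 (SD, n = 5 arrays). Above the cut-off of 5 were 4 of 12 (33.3%), beside 81.3% of all genes. Krt34 read 6.66, 6.59, 6.81, 6.97 and 6.71, with 1 array just above the background level. Among inner root sheath keratins the means ran from 3.71 ± 0.17 for Krt26 to 5.73 ± 0.46 for Krt25. Of these, 2 of 8 (25%), Krt25 and Krt72, were above the cut-off of 5, again beside 81.3% of all genes. With the receptor genes alone as background, the hair keratins Krt34, Krt36 and Krt83 passed, and no inner root sheath keratin did. The keratin-associated proteins, which cross-link hair keratins, gave 1 call in 38 genes (2.63%, beside 65.7% of all genes), Krtap17-1 at 9.65 ± 0.28. The median of their gene means was 3.77.

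Along the clusters, calls lay next to each other. Of the 11 keratins above background, 7 had a directly neighbouring protein-coding gene that was a keratin above background too, in the runs Krt15 and Krt19, Krt80 and Krt7, and Krt78, Krt8 and Krt18. The other 4 were Krt10, Krt20 and Krt42 in the type I cluster and Krt1 in the type II cluster. The hair keratins from Krt33a to Krt36 formed an unbroken run of genes not called. The order is given as a description, without a test.

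The keratins differed in how far they varied between replicates. The SD over the 5 arrays had a median of 0.20 for keratins and 0.17 for all genes. Krt18, Krt8 and Krt7 lay at percentiles 0.2, 2.8 and 4.0 of the SDs of genes above background, and Krt19 and Krt20 at 27.8 and 57.7. The median SD was 0.05 over the 90 genes with a mean above 14, where brightness is near its upper end. Krt18, Krt8 and Krt19 are among those genes, and Krt7 (mean 12.50) and Krt20 (mean 7.33) are not. As the mean deviation of a class from its own gene means, the simple keratins ranged by 0.14 over the arrays, the inner root sheath and the hair keratins by 0.16 each, and the basal keratins by 0.42 with the highest value on replicate 4. The suprabasal keratins ranged by 0.99, and by 0.20 without Krt4, Krt6a and Krt13.

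Krt4, Krt6a and Krt13 were far higher on replicate 5 than on any other array. Krt13, the type I keratin of moist layered epithelia, read 5.22, 5.03, 5.04, 6.39 and 10.10 on replicates 1 to 5. Krt4, its type II partner, read 7.0, 6.29, 5.93, 7.46 and 10.28, with 3 of 5 arrays above the background level. Krt6a, a type II keratin of moist layered epithelia, skin appendages and wounds, read 4.71, 5.13, 5.02, 5.05 and 8.14. Replicate 5 stood above the next highest array by 3.72 in Krt13, 2.82 in Krt4 and 3.00 in Krt6a (log2), and above the mean of the other 4 arrays by 4.69, 3.61 and 3.16. Krt13 and Krt4 also had their second highest array in common, replicate 4. None of the 3 passed at the level set by all background genes (for Krt4, 0.44 ± 0.58, SE, adjusted p = 0.458, limma). Without replicate 5 none passed either. With the receptor genes alone as background Krt4 passed (1.95 above that level, adjusted p = 0.00865, limma), and Krt6a and Krt13 did not.

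Further probe sets repeated the pattern for Krt4 and Krt6a but not for Krt13. The second probe set of Krt4 read 6.37, 5.77, 5.56, 7.04 and 9.53. Those of Krt6a read 4.36, 5.26, 4.31, 4.68 and 8.37, and 4.60, 5.18, 4.92, 4.95 and 7.24. The other probe sets of Krt13 read 4.72, 4.02, 4.43, 4.43 and 5.06, and 3.84, 3.96, 3.93, 4.29 and 4.27, where replicate 5 did not stand apart. The high value of Krt13 therefore rests on 1 of its 3 probe sets, and on the mean of the 3 the excess of replicate 5 was 1.87.

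**Figure D2:**
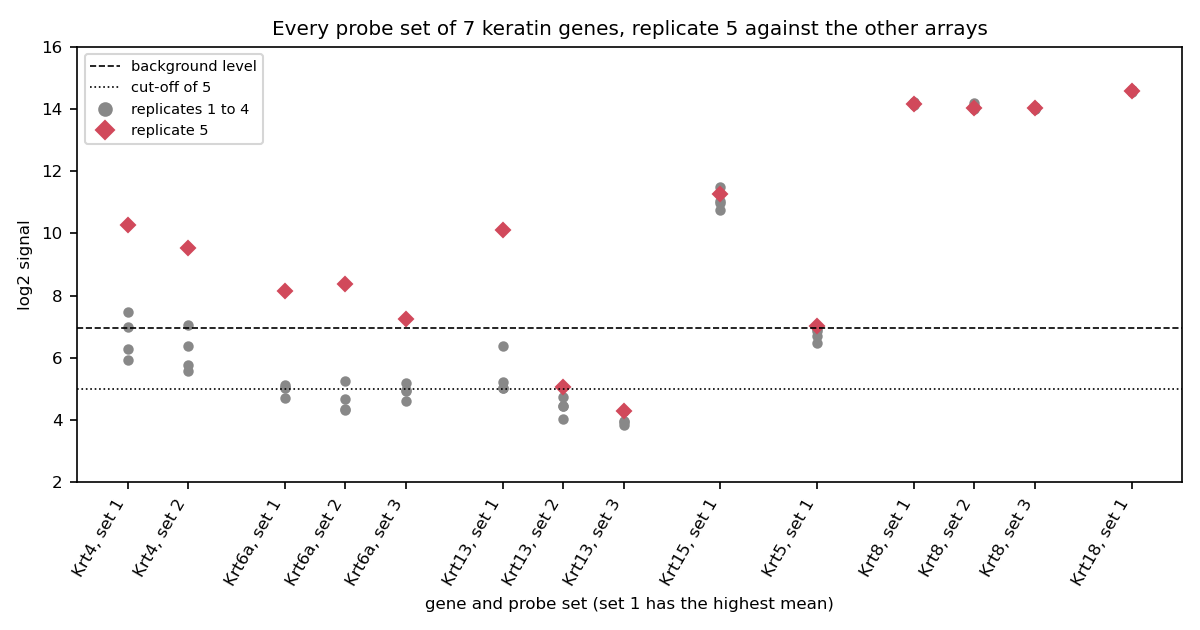
Log2 signal (vertical axis) of every probe set of 7 keratin genes on replicate 5 (red diamonds) and replicates 1 to 4 (grey points), with the background level of 6.95 (dashed) and the cut-off of 5 (dotted). Replicate 5 stood at 10.28 and 9.53 in the probe sets of Krt4, at 8.14, 8.37 and 7.24 in those of Krt6a and at 10.10 in 1 of the 3 of Krt13, while in Krt15, Krt5, Krt8 and Krt18 it lay close to the other arrays.

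Such large excesses were few in the whole table and lay mostly on that array. Replicate 5 exceeded the next highest array by over 2 (log2) in 10 genes, and 3 of these were keratins, whereas replicates 1 to 4 did so in 0, 1, 0 and 1 genes and in no keratin. Of the other 7, Sprr3, a cornified envelope protein of moist layered epithelia, read 4.09, 4.37, 3.89, 4.76 and 7.18. Csta1, a cystatin, read 3.85, 4.34, 4.40, 4.36 and 7.38. The remaining 5 were Thbs4, Psca, Alb, Mpo and Trbv1, which include genes of liver and blood cells. By over 1, replicate 5 exceeded the next highest array in 35 genes, with the same 3 keratins, and the other arrays did so in 4 to 9 genes each. Krt23, the keratin with the next largest excess, read 5.17, 5.97, 6.0, 6.15 and 7.03.

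Marker lists of other cells differed in how they stood on that array. Summed as the mean level of their genes, alveolar type 2 markers ran from 11.19 on replicate 1 to 12.40 on replicate 5. White blood cell markers ran from 8.04 to 8.86 on the same arrays. The mesenchymal mean was highest on replicate 5 as well, at 10.21 against 9.88 to 10.08 elsewhere. Of its 12 genes, only Lum (6.76 against 3.87 to 4.88) and Dcn (9.06 against 7.48 to 8.26) were highest on replicate 5. Acta2 (11.38) and Pdgfrb (8.53) were lowest on that array. Club and goblet cell markers were lowest there, at 9.75, and highest on replicate 4, at 10.41. Alveolar type 1 markers, at 11.59, and endothelial markers, at 11.04, lay within the range of the other arrays. The ciliated list stayed between 12.08 and 12.16, the airway basal list between 10.03 and 10.15, and the epidermis list, at 5.74 on replicate 5, lay within its range of 5.55 to 5.86. Krt5 exceeded its next highest array by 0.11 on replicate 5, and Krt14 did not exceed it. The part of other cells in the values of Krt4, Krt6a and Krt13 was not tested.

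By the gap between the outermost array and its neighbour as a share of the range, 3 of 48 keratins had an outlying array, beside 5.00% of all genes. These were Krt13 and Krt6a, high on replicate 5, and the hair keratin Krt84, low on replicate 2. The values of Krt84 all lay below the cut-off of 5, at 4.93, 4.54, 4.97, 4.95 and 4.89. A share of 3 in 48 is near the background.

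Keratin filaments attach to desmosomes and hemidesmosomes through linker proteins of the plakin family and their partners. Of 14 genes for plakins, hemidesmosome parts and other keratin-binding proteins, 13 were above background (92.9%, beside 65.7% of all genes), with Plec, which encodes plectin, at 11.99 ± 0.04, Ppl, periplakin, at 9.40 ± 0.18, Evpl, envoplakin, at 8.97 ± 0.24 and Eppk1, epiplakin, at 13.18 ± 0.08 (SD, n = 5 arrays). The exception was Col17a1, a hemidesmosomal collagen of basal cells, at 5.11 ± 0.37.

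Of 12 desmosome genes, 8 were above background (66.7%), a share near the 65.7% of all genes. Dsp, desmoplakin, which anchors keratin, read 12.41 ± 0.15, Jup, plakoglobin, 12.42 ± 0.11, and Pkp2, the plakophilin of simple epithelia, 11.42 ± 0.20 (SD, n = 5 arrays). The cadherins of simple epithelia, Dsg2 and Dsc2, read 11.88 ± 0.10 and 9.67 ± 0.44. Of those of layered epithelia, Dsg1a read 2.90 ± 0.15, Dsc1 4.04 ± 0.29 and Dsc3 4.71 ± 0.21, and Pkp1, the plakophilin of layered epithelia, read 5.60 ± 0.95. On replicates 1 to 5 Pkp1 read 5.30, 4.45, 5.31, 5.87 and 7.04, so it too was highest on replicate 5, and Dsc1 and Dsc3 were not. Perp, which is used by layered epithelia as well, was above background at 12.95 ± 0.12.

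Of 18 genes for other intermediate filaments, 10 were above background (55.6%, beside 65.7% of all genes). Vim, the filament of mesenchymal cells, read 14.08 ± 0.15, and Des, the filament of muscle, 7.42 ± 0.27 (SD, n = 5 arrays). Gfap, the filament of astrocytes, read 5.91 ± 0.20 and Prph, a filament of peripheral neurons, 6.57 ± 0.56, neither above background. Des was below the level when its probe sets were averaged, and with the receptor genes alone as background 16 of the 18 passed.

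**Figure D3:**
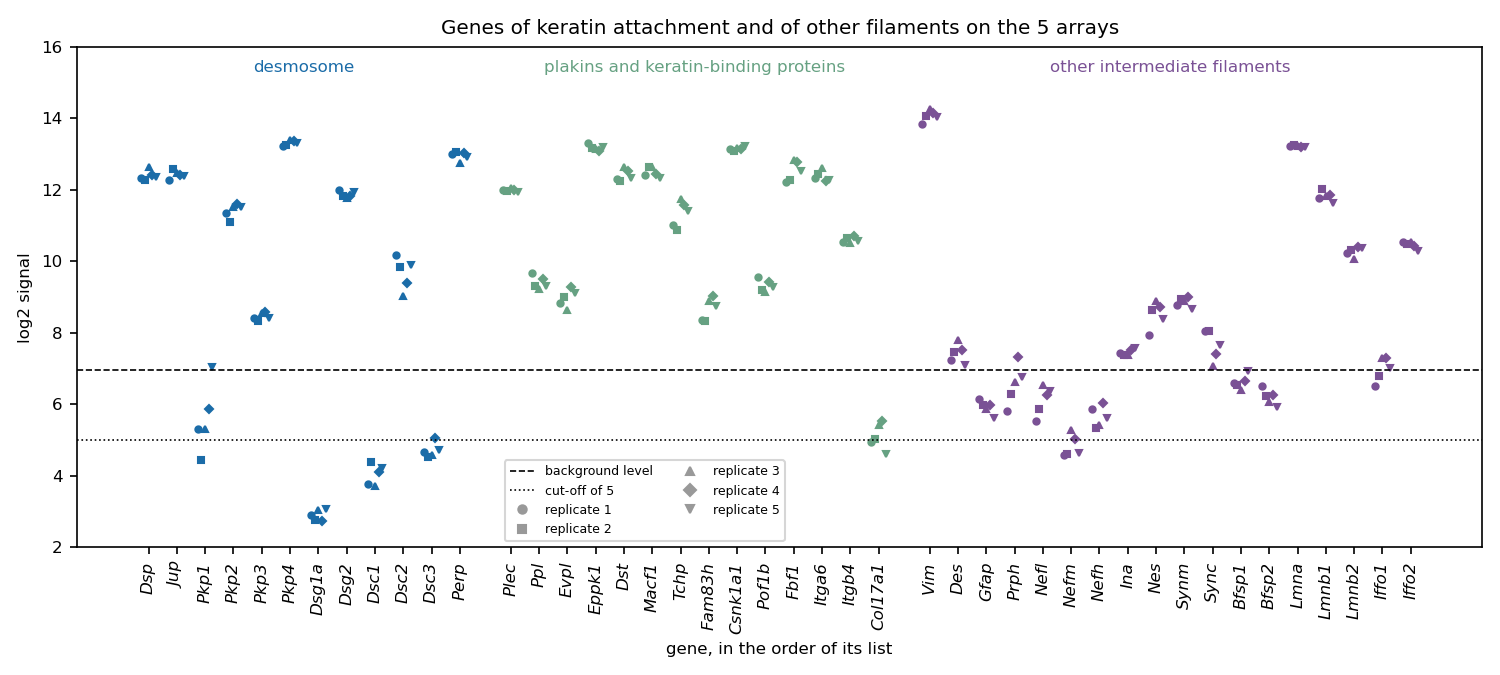
Log2 signal (vertical axis) of genes of the desmosome, of plakins and other keratin-binding proteins and of other intermediate filaments on each of the 5 arrays, 1 symbol per replicate, with the background level of 6.95 (dashed) and the cut-off of 5 (dotted). Dsg1a, Dsc1, Dsc3 and, apart from replicate 5, Pkp1 lay below the background level, as did Col17a1, while the other desmosome and linker genes lay above it on every array.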

How the data were processed

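RNA from 5 replicates of GFP+ cells sorted from FOXJ1-GFP lungs at E17.5 was measured on 1 Affymetrix array each. The authors analysed the arrays with Bioconductor in R and deposited 1 log2 value per probe set and array. How the arrays were normalized is not stated in the sources used here. The scale was taken to be log2 from the range of 2.37 to 15.11 outside the controls. Whether the replicates are separate litters is not stated, so the p-values reflect only the spread among these arrays, whose number limits the precision.

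After 64 controls were left out, 45037 probe sets were fitted with limma 3.58.1 in R 4.3.3, with an intercept each and a moderated one-sided test against the level, adjusted by Benjamini-Hochberg over all of them at 0.05. Platform annotation gave 34945 probe sets 1 gene, 932 several and 9160 none. As background level served the 95th percentile over the means of 76 receptor and 62 tissue-restricted genes (138 in all), and 3 of these passed it. The gap ratio's threshold was 0.71. Calculations outside limma used Python 3.11.15, numpy 2.4.6 and pandas 2.3.3, and the level test was tested on simulated data.

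The keratin genes and the lists were chosen with earlier results of these data known. Named are simple and basal keratins, keratins above background, and the highest and lowest of each class. Also named are keratins with an outlying array or with a call above background that changed with the setting. Of the ciliated, airway basal, epidermis, desmosome, plakin and other filament lists, the first 4 genes are named, with exceptions and some further genes. Mesenchymal genes were named for their values on replicate 5. Of the keratin-associated list only the gene called is named. The other cell type lists are given by counts or array means. The comparison of replicate 5 with the other arrays was chosen after its values were seen. Alternatives averaged the probe sets of a gene, left out those with a suffix for shared targets, renormalized or centred the arrays, replaced the test by all 5 arrays, changed the levels or left out an array. Lists counted but not shown gave 12 of 12 epithelial, 7 of 8 neuroendocrine (87.5%) and 5 of 9 mesothelial genes (55.6%) above background. The share of all genes was 65.7%, so the mesothelial share was below it.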

Additional observations from a re-analysis of the deposited data

Results flagged for a closer look

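3 keratin genes had an array that stood apart, with a gap to its neighbour of more than 0.71 of the range over 5 arrays. The gap was 0.88 of the range for Krt6a and 0.73 for Krt13, both high on replicate 5, and 0.80 for Krt84, low on replicate 2. Chance flags about 1 in 20 groups, and of all genes 5.00% met the same threshold. Krt4, whose replicate 5 was also the highest array, did not meet it.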

How the results depend on the processing

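No paired analysis was possible because the series holds 1 group. Quantile normalization, centring, requiring all 5 arrays and leaving out any array each gave 11 keratins above background. With an array left out, 27 to 28 keratins passed the cut-off of 5, and with all arrays 16 passed a cut-off of 6. With suffixed probe sets left out, 42 keratins remained and 7 were called, since every probe set of Krt7, Krt8 and Krt10 has a suffix and Krt42 fell to -1.12. Calls were then 3 of 3 simple, 1 other keratin, 3 epidermis and 5 club and goblet genes, with Lmna at -0.77 and Sbsn at -0.29 from the level. At the 99th percentile 7 keratins were called, 1 of them suprabasal and 1 other, with 3 epidermis genes, and Krt20 was -0.50, Krt42 -0.04, Krt78 -0.61, Des -0.41, Ina -0.37, Sync -0.19 and Sprr1a -0.19 from the level. With receptor genes alone as background 19 keratins were called, 2 basal, 5 suprabasal, 3 hair and 4 other, with 16 other filament, 8 epidermis and 4 keratin-associated genes. With probe sets averaged, 10 keratins were called, 1 of them other, Krt42 was 0.06 above the level (adjusted p = 0.39, limma), and Des was -1.42, Ina -0.58, Sync -0.82 and Dlx3 -0.39 from it. With tissue-restricted genes alone 9 were called, without Krt20 (0.15 above) and Krt78 (0.03 above). Where a level or probe set changed a call, the alternative's own construction sets the change.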
